A study of Mus musculus with 12 samples.

Results

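The genes described here are 34 genes of the cell cycle and of DNA replication, picked by symbol from the 38087 genes of the count table. They were split into 11 genes of G1 and the entry into S phase, 11 genes of S phase and DNA synthesis, and 12 genes of G2 and mitosis. A mean of at least 10 counts over the 12 libraries was reached by 27 of the 34 genes, which were 11 of 11 G1 genes, 10 of 11 S phase genes and 6 of 12 mitotic genes. A filter on low counts left 26 of the 34 genes for testing, namely 10, 10 and 6 in the same order.

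Liver RNA came from male germ-free C57BL/6j mice aged 13 to 16 weeks. Of the 12 libraries, 6 were from mice given human growth hormone (GH, recombinant) beneath the skin at 50 µg per mouse, which the labels do not tie to an injection or a day, and 6 were from mice given phosphate-buffered saline (PBS). Injections were given at ZT 2 and ZT 14, in hours after lights on, on 5 days, and the livers were collected at ZT 2. All mice of both groups lacked a gut microbiome, so no mouse with a microbiome enters any value below, and each group is 1 sex, 1 strain and 1 hour of the day. The labels number the 6 liver samples of each group and do not say more about their housing or litters.

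Cells divide by passing through G1, S phase, G2 and mitosis. D-type cyclins with the kinases Cdk4 and Cdk6, and then cyclin E with Cdk2, phosphorylate the retinoblastoma protein, which releases E2F factors that switch on the genes of DNA replication, while the inhibitors p21 and p27 hold these kinases back. The proteins of G2 and mitosis, with Cdk1 at their head, are made later in the cycle under FoxM1 and B-Myb and are kept off by the DREAM complex in resting cells. Most hepatocytes of an adult liver rest outside the cycle and re-enter it after loss of liver mass, and p21 and the D-type cyclins are also made in cells that do not divide. In whole-liver RNA, fewer cells of a type and less RNA per cell cannot be told apart.

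The classes also differ in the sequence in front of their genes, which is shown here because the textbook scheme links certain motifs to replication and mitotic genes. The classes themselves were set by gene symbol and not by motif. RefSeq windows on GRCm38.p6 from 250 bases before to 50 bases after the start were found for 27 of the 34 genes. The letters TTTNNCGC (an E2F motif), CCAAT (bound by NF-Y) and TTTGAA (the cell cycle homology region, CHR, bound by DREAM) were searched on both strands. In the windows below, capitals mark every match, and the gene's strand is given. Mcm5 on the plus strand (chr8:75109259-75109558), a helicase subunit of S phase, has E2F and CCAAT matches, and its 2 E2F matches, 1 on each strand, overlap each other.
Mcm5: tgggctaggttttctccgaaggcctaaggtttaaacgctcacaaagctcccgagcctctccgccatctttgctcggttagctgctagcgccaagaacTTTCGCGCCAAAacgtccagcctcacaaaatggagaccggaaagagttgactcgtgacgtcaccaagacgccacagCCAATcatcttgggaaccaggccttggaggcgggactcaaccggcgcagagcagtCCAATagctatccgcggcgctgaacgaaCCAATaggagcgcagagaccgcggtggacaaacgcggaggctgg
Cdk1 on the minus strand (chr10:69352863-69353162), the kinase of mitosis, holds matches to all 3 motifs.
Cdk1: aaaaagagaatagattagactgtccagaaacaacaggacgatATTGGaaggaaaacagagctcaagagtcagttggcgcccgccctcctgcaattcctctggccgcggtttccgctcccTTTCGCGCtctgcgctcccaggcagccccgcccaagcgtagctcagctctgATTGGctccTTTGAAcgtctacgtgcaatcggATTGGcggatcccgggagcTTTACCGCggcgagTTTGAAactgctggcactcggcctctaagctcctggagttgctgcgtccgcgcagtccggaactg
Top2a on the minus strand (chr11:99024140-99024439), the topoisomerase that untangles replicated chromosomes, has CCAAT and CHR matches and no E2F match.
Top2a: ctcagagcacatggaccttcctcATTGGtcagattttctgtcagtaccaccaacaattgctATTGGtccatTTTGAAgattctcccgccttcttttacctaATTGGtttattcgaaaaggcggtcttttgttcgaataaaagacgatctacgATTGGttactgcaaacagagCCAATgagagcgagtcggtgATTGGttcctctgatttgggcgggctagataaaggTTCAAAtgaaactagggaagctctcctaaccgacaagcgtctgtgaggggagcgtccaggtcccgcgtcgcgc
In these 3 windows no other matches overlapped.

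Among the windows of all 27025 genes, 5.93% held the E2F letters, 41.1% held CCAAT and 20.2% held the CHR letters. Of the 10 S phase genes with a window, 6 held the E2F letters (Cdc6, Mcm3, Mcm5, Mcm6, Mcm7 and Tyms), 8 held CCAAT and 1, Mcm2, held the CHR letters. Of the 10 mitotic genes with a window, 7 held the CHR letters (Ccnb2, Cdk1, Cdc20, Aurka, Plk1, Mki67 and Top2a), 9 held CCAAT and 1, Cdk1, held the E2F letters. Of the 7 G1 genes with a window, 2 held the E2F letters (Cdk6 and Cdk2), 3 held CCAAT and 0 held the CHR letters. A match describes these letters only, and no binding was measured.

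The count table held 19523104 to 23278931 counts per library, so a gene of 1 CPM (counts in each 1000000 after TMM scaling) rests on about 20 counts. That depth bounds how finely the mitotic genes were measured, and a count of 0 allows up to 0.128 to 0.157 CPM depending on the library (3 counts, for counting error only). Levels are in CPM, differences are log2 fold changes of GH minus PBS with the standard error (SE) and a 95% confidence interval, and adjusted p-values are from edgeR's quasi-likelihood test over 14235 genes with Benjamini-Hochberg adjustment, called at 0.05.

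None of the 26 genes tested passed in either direction with GH, by edgeR or by DESeq2, which gave no adjusted p for Ccna2 and Aurka. Of all 14235 genes tested, 4.79% passed by edgeR (2.27% higher and 2.52% lower in GH). DESeq2 passed more of these genes, 504 higher and 566 lower. An unadjusted p under 0.05 was met by 1 of the 26 genes, Ccnd2, or 3.85%, against 19.0% of all genes tested. Of the 26, 0 had groups that did not overlap, against 3.18% of all genes tested. The log2 fold change was positive for 17 genes and negative for 9, with a median of 0.07 beside 0.00 over all genes tested. The median size of the change, without its sign, was 0.15 beside 0.13 over all genes tested. The 95% intervals lay within a 2-fold change in either direction for 22 of the 26 genes and within a 1.5-fold change for 12. These 12 were 5 of 10 G1 genes, 7 of 10 S phase genes and 0 of 6 mitotic genes.

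**Figure D1:**
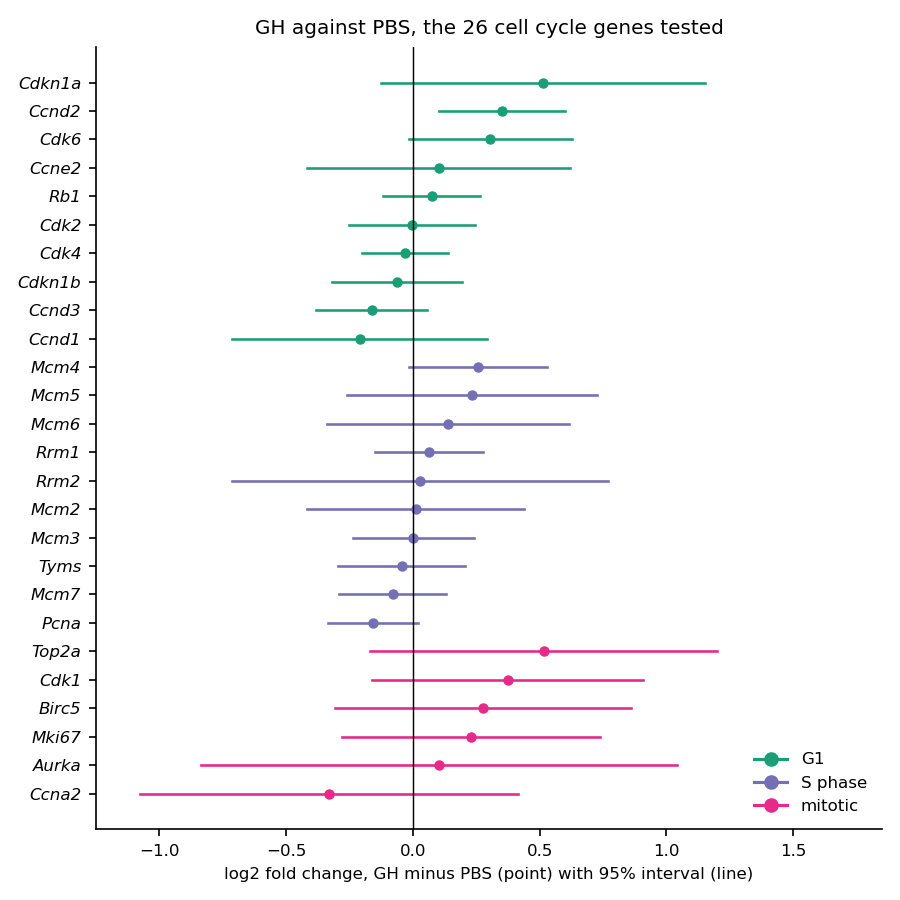
Log2 fold change of GH minus PBS (horizontal axis) for the 26 genes tested, in 3 blocks for G1, S phase and mitosis, with points for the estimate and lines for the 95% confidence interval of edgeR's fit of 6 against 6 libraries. The values run from -0.33 for Ccna2 to 0.52 for Top2a, and the lines of the mitotic genes are the longest as a class.

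The order of the genes in these livers was read from CPM per kilobase of exon. The length used is that of all annotated exons of a gene merged, which can exceed that of the transcript made, so the order depends in part on the annotation. Cdk4 at 7.73 and Pcna at 7.52 led the 34 genes, followed by Cdkn1b at 5.20, Cdkn1a at 3.62 and Mcm7 at 2.95. Among the kinases, Cdk4 stood at 7.73, Cdk2 at 1.35, Cdk6 at 0.558 and Cdk1, the mitotic one, at 0.152 CPM per kilobase. Among the cyclins, the D types stood at 1.96 (Ccnd1), 1.74 (Ccnd3) and 1.01 (Ccnd2), the E types at 0.423 (Ccne2) and 0.181 (Ccne1), and the A and B types at 0.146 (Ccnb2), 0.137 (Ccna2) and 0.0421 (Ccnb1). Each D-type cyclin was above each A- and B-type cyclin on this scale. The lowest of the 34 was Bub1 at 0.0256 CPM per kilobase.

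**Figure D2:**
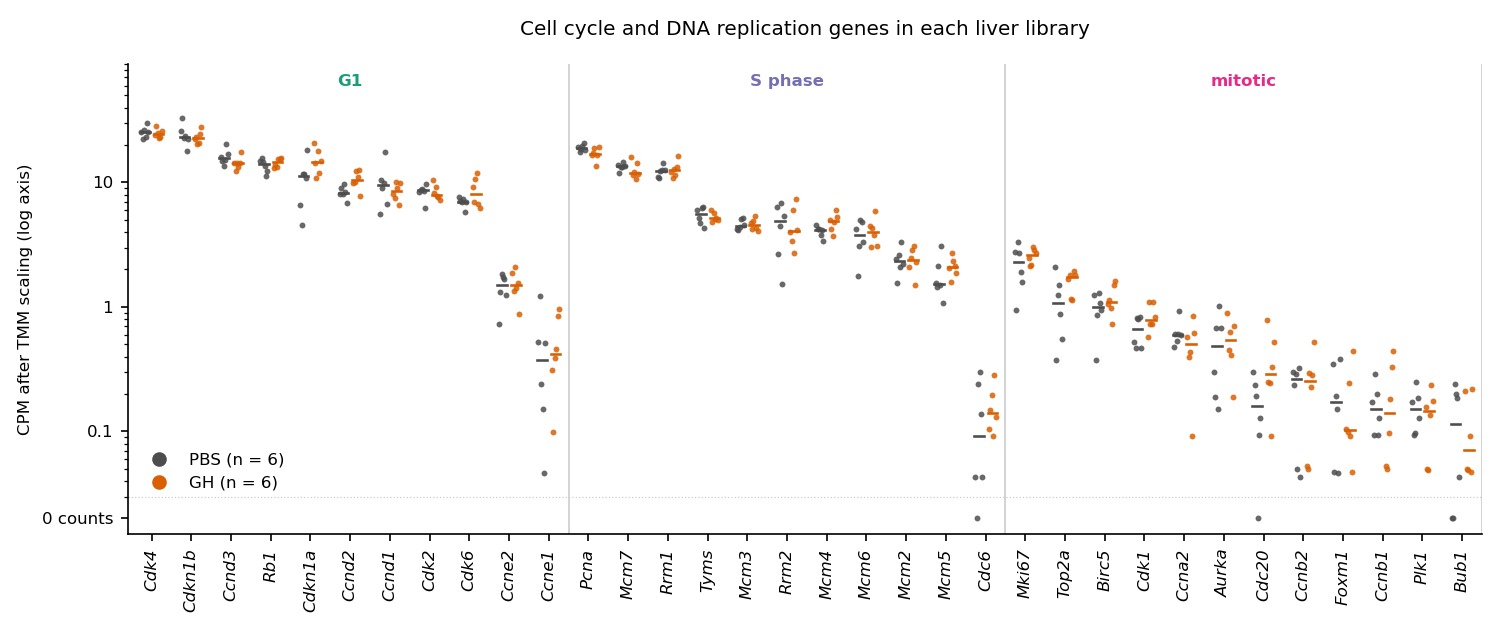
CPM after TMM scaling (log axis) of the cell cycle genes in each of the 6 PBS and 6 GH libraries, with genes in 3 blocks by class, points for libraries and bars for the group median. The G1 genes reach 25.1 CPM on average for Cdk4 and the mitotic genes stay at or under 2.39 CPM on average, and the points of the groups overlap for every gene tested.

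The 3 D-type cyclins gave log2 fold changes of both signs, none past the threshold over all 12 libraries. Ccnd2 (chr6, 127125162 to 127152193 on the minus strand), which encodes cyclin D2, stood at 6.84, 8.21 and 9.68 CPM (lowest, median and highest) in PBS and at 7.82, 10.5 and 12.6 CPM in GH. In 5 of 6 GH libraries it was above the highest PBS library, and GH replicate 6 was the exception at 7.82 CPM. The log2 fold change was 0.35 ± 0.12 (SE), with an interval of 0.10 to 0.60, an unadjusted edgeR p of 0.00873 and an adjusted p of 0.108. It passed when GH replicate 6 was left out (0.43, adjusted p = 0.0265) and when GH replicate 6 and PBS replicate 5 were both left out (0.42, adjusted p = 0.0308). Over the fits that left out 1 library each, its log2 fold change ran from 0.30 to 0.43 and its highest adjusted p was 0.214. DESeq2 gave it an adjusted p of 0.0702.

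Ccnd1, which encodes cyclin D1, the D-type cyclin best known from liver regeneration, stood at 5.59, 9.46 and 17.7 CPM in PBS and at 6.58, 8.58 and 10.03 CPM in GH. The groups overlapped, and the highest value, 17.7 CPM, was in PBS replicate 5. The coefficient of variation was 42.8% in PBS and 16.0% in GH. The log2 fold change was -0.21 ± 0.23 (adjusted p = 0.686 by edgeR), and it was 0.03 without PBS replicate 5. Ccnd1 was picked out for its spread after its values were seen. Ccnd3, for cyclin D3, stood at 13.7, 15.6 and 20.4 CPM in PBS and at 12.5, 14.4 and 17.7 CPM in GH (-0.16 ± 0.10, adjusted p = 0.429 by edgeR), with overlapping groups. Exons of all 3 D-type cyclin genes overlap those of a gene on the other strand by 361 to 1100 bases.

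Of the G1 kinases, Cdk4 had the narrowest interval and Cdk6 the widest. Cdk4 stood at 22.3, 25.3 and 29.9 CPM in PBS and at 22.9, 24.5 and 28.4 CPM in GH, a log2 fold change of -0.03 with limits of -0.20 and 0.14 (adjusted p = 0.886 by edgeR). Cdk2, the partner of cyclin E, had a median of 8.66 CPM in PBS and 7.99 CPM in GH, with a log2 fold change of -0.00 ± 0.12. Cdk6 stood at 5.81, 7.02 and 7.66 CPM in PBS and at 6.28, 8.08 and 11.9 CPM in GH. In 3 of 6 GH libraries Cdk6 was above the highest PBS library and the others lay within the PBS range. Its log2 fold change was 0.30 ± 0.15, with an interval of -0.02 to 0.63 (adjusted p = 0.292 by edgeR). Of the cyclin E genes, Ccne2 had a median of 1.49 CPM in each group, and Ccne1, with 1 to 26 counts per library, did not pass the filter.

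Of the brakes of G1, Cdkn1a (chr17, 29090976 to 29100727 on the plus strand), which encodes p21, a p53 target that inhibits cyclin-dependent kinases, varied widely among the libraries. It stood at 4.55, 11.3 and 18.1 CPM in PBS and at 10.9, 14.7 and 20.9 CPM in GH. All 6 GH libraries were above the PBS mean, but only 1 was above the highest PBS library. The log2 fold change was 0.51 ± 0.29, with an interval of -0.12 to 1.15 (adjusted p = 0.378 by edgeR). Its coefficient of variation was 44.7% in PBS and 24.7% in GH, and the log2 fold change ran from 0.36 to 0.74 as single libraries were left out. Cdkn1b, which encodes p27, stood at 17.9, 23.1 and 32.8 CPM in PBS and at 20.3, 22.8 and 27.9 CPM in GH (-0.06 ± 0.12). Rb1, the retinoblastoma gene, stood at 11.2, 14.1 and 15.7 CPM in PBS and at 13.1, 14.6 and 15.6 CPM in GH (0.07 ± 0.09). Neither passed, with adjusted p-values of 0.833 and 0.723 by edgeR.

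None of the 10 tested S phase genes passed, 0 had an unadjusted edgeR p under 0.05, and 10 of 10 intervals lay within a 2-fold change. The MCM2-7 proteins form the ring-shaped helicase that opens DNA at origins. Mcm7 stood at 12.0, 13.5 and 14.7 CPM in PBS and at 10.6, 12.0 and 16.0 CPM in GH (-0.08 ± 0.10, adjusted p = 0.727 by edgeR). Mcm4 (chr16, 15623897 to 15637400 on the minus strand) stood at 3.38, 4.17 and 4.55 CPM in PBS and at 3.75, 4.88 and 5.96 CPM in GH. In 4 of 6 GH libraries it was above the highest PBS library, and the other 2 lay within the PBS range. Its log2 fold change was 0.26 ± 0.13, with an interval of -0.01 to 0.53 (adjusted p = 0.293 by edgeR). Mcm5 stood at 1.07, 1.53 and 3.11 CPM in PBS and at 1.60, 2.09 and 2.73 CPM in GH (0.23 ± 0.23, adjusted p = 0.642 by edgeR), with the GH values inside the PBS range.

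The other subunits, Mcm2, Mcm3 and Mcm6, had log2 fold changes of 0.01, 0.00 and 0.14 with overlapping groups. The 6 subunits are built into the ring in equal number. Their RNA levels per kilobase of merged exons ran from 0.343 (Mcm2) through 0.491 (Mcm5), 0.835 (Mcm6), 1.23 (Mcm3) and 1.24 (Mcm4) to 2.95 (Mcm7). This order depends in part on the annotated lengths. The merged exons of all annotated Mcm7 transcripts overlap the microRNA genes Mir25 and Mir93 on the same strand by 84 and 88 bases. They share 321 bases with exons of Ap4m1 on the other strand. Cdc6, which loads the helicase onto origins, had 0 to 6 counts per library, with 16 counts in all in PBS and 20 in GH, and was not tested. It had 0 counts in PBS replicate 2.

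Pcna (chr2, 132249162 to 132253314 on the minus strand), the sliding clamp of the replicative polymerases, which also serves DNA repair, stood at 17.5, 19.0 and 20.6 CPM in PBS and at 13.7, 17.0 and 19.4 CPM in GH. In 4 of 6 GH libraries it was below the lowest PBS library. The log2 fold change was -0.16 ± 0.08, with an interval of -0.33 to 0.02 (adjusted p = 0.330 by edgeR). A processed copy, Pcna-ps2, was counted apart with 61 to 109 counts per library, and no source used here tells how reads were shared between it and Pcna.

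The genes of nucleotide supply had log2 fold changes between -0.04 and 0.06. Rrm1, the large subunit of ribonucleotide reductase, which is made throughout the cycle, stood at 10.8, 12.5 and 14.2 CPM in PBS and at 10.9, 12.6 and 16.2 CPM in GH (0.06 ± 0.10, adjusted p = 0.791 by edgeR). Rrm2, the small subunit made in S phase, stood at 1.53, 4.92 and 6.82 CPM in PBS and at 2.74, 4.10 and 7.38 CPM in GH. Its coefficient of variation was 45.8% in PBS and 37.6% in GH, and its log2 fold change was 0.03 ± 0.34 (adjusted p = 0.978 by edgeR). PBS replicate 5 held the lowest Rrm2 of the PBS group and the highest Ccnd1. Rrm2 was also picked out after its values were seen. Tyms, thymidylate synthase, had medians of 5.57 CPM in PBS and 5.16 CPM in GH (-0.04 ± 0.12).

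The mitotic genes were the scarcest class, and 0 of the 6 tested had an unadjusted edgeR p under 0.05. The most abundant was Mki67 (chr7, 135689784 to 135716361 on the minus strand), which encodes the proliferation marker Ki-67 that coats mitotic chromosomes. It stood at 0.939, 2.31 and 3.33 CPM in PBS and at 2.14, 2.59 and 3.06 CPM in GH, or 20 to 69 counts per library. The lowest value was in PBS replicate 2, and every GH library lay within the PBS range. The log2 fold change was 0.23 ± 0.24, with an interval of -0.28 to 0.74 (adjusted p = 0.665 by edgeR).

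Top2a, whose start window is printed above, stood at 0.375, 1.07 and 2.08 CPM in PBS and at 1.14, 1.74 and 1.94 CPM in GH. All 6 GH libraries were above the PBS mean and none was above the highest PBS library. Its log2 fold change was 0.52 ± 0.32, with an interval of -0.17 to 1.20 (adjusted p = 0.422 by edgeR), and it ran from 0.34 to 0.80 as single libraries were left out. The lowest value was again in PBS replicate 2.

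**Figure D3:**
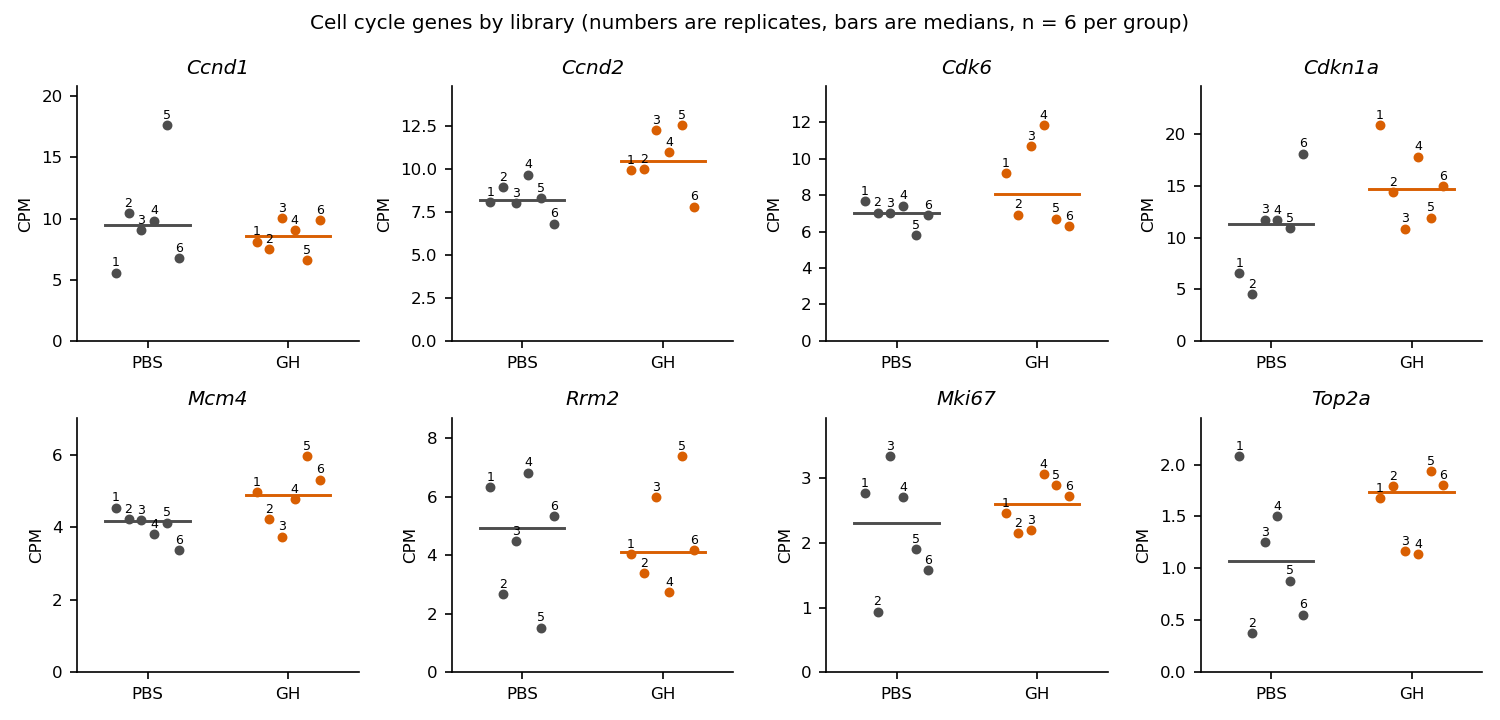
CPM after TMM scaling of 8 cell cycle genes (Ccnd1, Ccnd2, Cdk6, Cdkn1a, Mcm4, Rrm2, Mki67 and Top2a) in each library, 1 panel per gene with its own axis from 0, points numbered by replicate for the 6 PBS and 6 GH libraries and bars for the group medians. PBS replicate 5 is the high point of Ccnd1 at 17.7 CPM and the low point of Rrm2 at 1.53 CPM, GH replicate 6 is the low GH point of Ccnd2 at 7.82 CPM, and PBS replicate 2 is the low point of Mki67 and Top2a.

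Cdk1, the kinase that drives entry into mitosis, stood at 0.469, 0.661 and 0.836 CPM in PBS and at 0.576, 0.783 and 1.10 CPM in GH (0.37 ± 0.25, adjusted p = 0.460 by edgeR). Birc5, for survivin of the chromosomal passenger complex, stood at 0.375, 1.005 and 1.30 CPM in PBS and at 0.730, 1.10 and 1.63 CPM in GH (0.28 ± 0.28, adjusted p = 0.642 by edgeR). Ccna2, for cyclin A2, went the other way at 0.476, 0.600 and 0.929 CPM in PBS and 0.0912, 0.507 and 0.852 CPM in GH (-0.33 ± 0.35, adjusted p = 0.665 by edgeR). All 3 genes had overlapping groups. Aurka, a kinase of the spindle poles, had a log2 fold change of 0.10 ± 0.44, the widest error of the 26. The mitotic intervals together reached from -1.08 to 1.20, and 3 of the 6 stayed within a 2-fold change.

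The other 6 mitotic genes had too few counts to be tested. Summed over 6 libraries, the cyclin B genes had 21 counts in PBS and 25 in GH (Ccnb1) and 27 and 31 (Ccnb2). The checkpoint kinase gene Bub1 had 14 and 14, the mitotic kinase gene Plk1 had 20 and 17, and Foxm1, for the factor that switches on G2 genes, had 26 and 22. Cdc20, which activates the anaphase-promoting complex, had 21 counts in PBS and 46 in GH. It had 15 counts in GH replicate 1, 12 in GH replicate 6, 2 to 7 in the other GH libraries and 0 to 7 in PBS. In a fit without the filter its log2 fold change was 1.17 (unadjusted p = 0.0331, adjusted p = 0.346 by edgeR). This p was the smallest of the 8 genes left out, whose adjusted p-values ran from 0.346 to 0.993 there. Cdc20 shares 53 exonic bases with Elovl1 on the other strand.

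Counts were also summed over the genes of each class by library. The 11 G1 genes together stood at 120, 126 and 130 CPM in PBS and at 125, 130 and 135 CPM in GH. The 11 S phase genes stood at 61.3, 71.8 and 78.2 CPM in PBS and at 63.1, 73.2 and 76.9 CPM in GH. The 12 mitotic genes stood at 3.66, 7.75 and 8.79 CPM in PBS and at 6.98, 8.09 and 10.6 CPM in GH. In all 3 classes the groups overlapped and their medians lay within each other's range. With library totals in place of TMM, the GH medians of the G1 and S phase sums lay below the PBS medians. The S phase sums then ran from 62.5 to 79.2 CPM in PBS and from 61.8 to 74.1 CPM in GH. The low mitotic sum of 3.66 CPM was PBS replicate 2, which held the lowest PBS value for 4 of 6 tested mitotic genes and for 6 of 10 tested S phase genes. PBS replicate 5 held the highest PBS value for 7 of 10 tested S phase genes and for 3 of 6 tested mitotic genes.

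**Figure D4:**
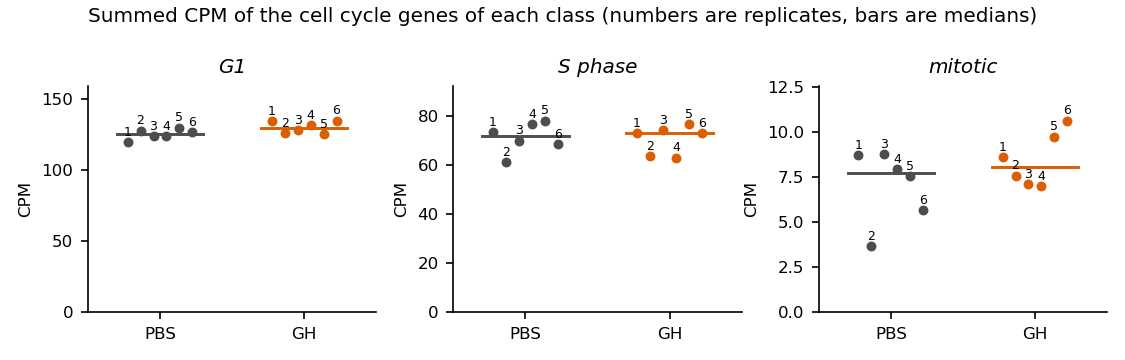
Summed CPM after TMM scaling of the 11 G1, 11 S phase and 12 mitotic genes in each library, with points for the 6 PBS and 6 GH libraries and a bar for the group median, each panel with its own axis. The groups overlap in every panel, and the lowest mitotic point is PBS replicate 2 at 3.66 CPM.

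The rest of the pathway was read from 6 further lists with 140 genes, of which 114 were tested. There 3 genes passed higher and 3 lower in GH, or 5.26% beside the 4.79% of all genes tested. An unadjusted edgeR p under 0.05 was met by 23.7% of the 114, beside 19.0% of all genes tested. The median log2 fold change over the 114 was 0.01 and the median size 0.15. Of 34 tested genes of origin licensing and the replisome, 1 was higher and 1 lower. Of 16 tested E2F, pocket protein and DREAM genes and of 14 tested further regulators of cyclin-dependent kinases, 0 passed. An unadjusted edgeR p under 0.05 was met by 1 and 4 of them (6.25% and 28.6%). The smallest adjusted p-values of these lists by edgeR were 0.0979 for Rbbp4, a chromatin subunit of DREAM (-0.19), and 0.0974 for Ccnf, for cyclin F (0.32). Rbbp4 shares 782 exonic bases with Sync and 796 with Gm26722, both on the other strand. DESeq2 passed 1 of the 16, Rbbp4, and 0 of the 14.

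In DNA synthesis, Tk1 rose and Pold2 fell. Tk1, cytosolic thymidine kinase, which salvages thymidine in S phase, stood at 8.53, 13.6 and 18.8 CPM in PBS and at 17.1, 22.5 and 29.9 CPM in GH. Its log2 fold change was 0.71 ± 0.18 (adjusted p = 0.0419 by edgeR), and the groups overlapped. Tk1 shares 83 exonic bases with Afmid on the other strand. Pold2, an accessory subunit of DNA polymerase delta, stood at 7.79, 8.68 and 11.0 CPM in PBS and at 3.96, 6.70 and 7.14 CPM in GH. Its groups did not overlap, with a log2 fold change of -0.51 ± 0.14 (adjusted p = 0.0381 by edgeR). Each call was lost in 9 of the 12 fits that left out 1 library, with adjusted p-values of at most 0.0946 for Tk1 and 0.0698 for Pold2. The Tk1 call was kept only without GH replicate 2, GH replicate 3 or PBS replicate 5, and the Pold2 call only without GH replicate 5, GH replicate 6 or PBS replicate 2. The Tk1 call was also lost with at least 1 count as the only filter (adjusted p = 0.128 by edgeR). Tk1 and Pold2 thus moved in opposite directions, while Tyms, Rrm1, Rrm2 and Pcna of the same process did not pass.

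Among 15 tested genes of the spindle, kinetochore and cytokinesis, 1 rose. Cenpa, the histone variant that marks centromeres, stood at 1.24, 1.39 and 2.08 CPM in PBS and at 1.87, 2.47 and 3.03 CPM in GH (0.69 ± 0.18, adjusted p = 0.0327 by edgeR). The groups overlapped, and the call was lost in 8 of 12 fits that left out 1 library, with an adjusted p of up to 0.0783, and kept without GH replicate 4, GH replicate 6, PBS replicate 2 or PBS replicate 3.

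Among 19 genes tested from a list of p53 targets and regulators, 1 fell, or 5.26% beside 4.79% of all genes tested. An unadjusted edgeR p under 0.05 was met by 4, or 21.1% beside 19.0% of all genes tested. DESeq2 called 3 lower (Aen, Gadd45b and Plk3), beside 566 lower among all 14235 genes. Gadd45b, a stress-induced gene of the Gadd45 family, stood at 0.552, 1.34 and 4.18 CPM in PBS and at 0.299, 0.480 and 0.633 CPM in GH (-1.83 ± 0.42, adjusted p = 0.0190 by edgeR). The groups overlapped, 4.18 CPM was PBS replicate 2 alone, without which the log2 fold change was -1.33, and the call was lost in 1 of the 12 fits, without GH replicate 2 (adjusted p = 0.0506). Cdkn1a, a p53 target among the 34 genes, had a positive log2 fold change that did not pass.

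Among 16 tested genes of growth signals to G1, 1 rose and 1 fell, or 12.5% beside 4.79% of all genes tested. An unadjusted edgeR p under 0.05 was met by 8, or 50.0% beside 19.0% of all genes tested. The list was chosen with earlier results of these data known, so these shares do not test it. DESeq2 called 1 higher (Mycn) and 2 lower (Egfr and Igf1), beside 504 higher and 566 lower among all 14235 genes. Mycn, a MYC-family transcription factor that promotes growth, stood at 0.558, 0.893 and 1.31 CPM in PBS and at 0.264, 3.89 and 4.58 CPM in GH (1.80 ± 0.47, adjusted p = 0.0446 by edgeR). GH replicate 6 at 0.264 CPM lay below every PBS library. The Mycn call was lost in 11 of the 12 fits that left out 1 library, with an adjusted p of up to 0.0959, and kept only without GH replicate 6 (2.05, adjusted p = 6.3e-05). Igf1, insulin-like growth factor 1, a GH target in liver, stood at 401, 499 and 541 CPM in PBS and at 227, 309 and 398 CPM in GH. It was lower in all 6 GH libraries than in any PBS library (-0.67 ± 0.12, adjusted p = 0.00381 by edgeR), and this call held in all 12 fits.

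**Figure D5:**
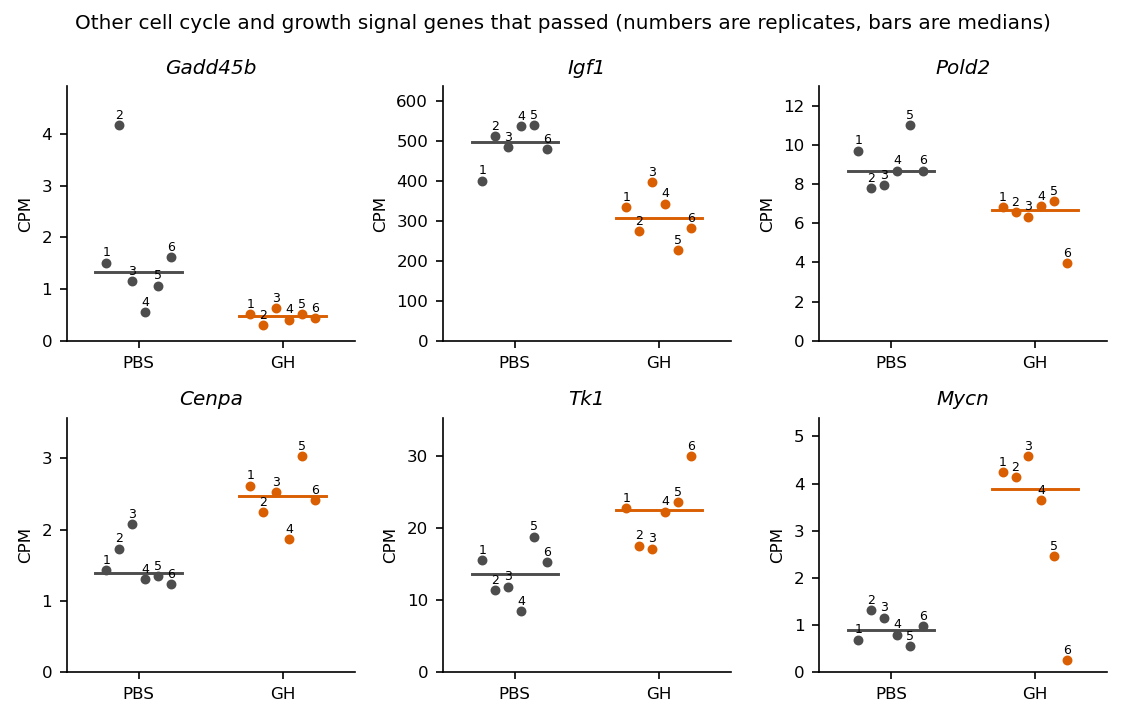
CPM after TMM scaling of the 6 further pathway genes that passed (Tk1, Cenpa, Mycn, Pold2, Gadd45b and Igf1) in the 6 PBS and 6 GH libraries, each panel with its own axis, points for libraries and bars for the group median. GH replicate 6 is the low point of Mycn at 0.264 CPM, and PBS replicate 2 the high point of Gadd45b at 4.18 CPM.

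Blood and other liver cells can carry replication and mitotic RNA, so their markers were read beside these values. Hepatocyte markers, with 6 of 6 tested, summed to 87195 to 105320 CPM in PBS and 70169 to 96524 CPM in GH. The lowest GH sum was GH replicate 6. The sum rests mostly on 1 gene, at 68678 CPM on average, and the median log2 fold change of the 6 markers was -0.04. Of these 6, 0 passed by edgeR, 2 had an unadjusted p under 0.05, and DESeq2 passed 1, albumin (Alb), lower in GH. Of the erythroid markers, 5 of 6 were tested and 1 passed: Alas2, the heme synthesis gene of red cell precursors, rose by a log2 fold change of 1.14 (adjusted p = 0.00302 by edgeR). The erythroid sum stood at 81.3, 121 and 341 CPM in PBS (lowest, median and highest) and at 198, 269 and 395 CPM in GH. Among the PBS libraries, only PBS replicate 5, the highest, was above the lowest GH sum. PBS replicate 5 also held the most high S phase values. The part of erythroid cells in Tk1, Cenpa and the S phase values was not tested.

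Lymphocyte markers summed to 1.92 to 3.86 CPM in PBS and 2.44 to 3.19 CPM in GH, with 2 of 8 tested and 0 called by edgeR or DESeq2. Neutrophil and myeloid precursor markers summed to 0.736 to 2.44 CPM and 0.994 to 2.28 CPM, with Mpo, Elane and Ngp at 0 to 2 counts in every library. Kupffer cell markers summed to 172 to 272 CPM in PBS and 178 to 232 CPM in GH, endothelial markers to 299 to 397 and 310 to 391 CPM, and cholangiocyte markers to 33.0 to 56.1 and 34.1 to 51.9 CPM, with 0 called by edgeR in each list and 0, 1 and 1 genes at an unadjusted p under 0.05. DESeq2 called 1 of them, Sox9, a cholangiocyte marker, higher in GH. Stellate cell and fibroblast markers summed to 359 to 416 CPM in PBS and 333 to 398 CPM in GH. Of these 6, 1 was called, or 16.7% beside 4.79% of all genes tested. Dcn, for decorin, fell by 0.38 on the log2 scale (adjusted p = 0.00296 by edgeR). The log2 fold change was positive for 4 of the 6 markers and negative for 2, with a median of 0.14.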

How the data were processed

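Total RNA of 12 mouse liver samples was sequenced, 6 per group. Per the labels' protocols, stranded libraries were made from 250 ng of ribosomal RNA-depleted RNA with 12 PCR cycles. STAR 2.4.0i and mm10 come from the submitters' processing notes. No source used here names the counting program, its annotation or its strand setting. The authors deposited raw exonic read counts per gene, without normalization.

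From these counts, filterByExpr (minimum count 10) and TMM scaling in edgeR 4.0.16 (R 4.3.3) were followed by a robust quasi-likelihood fit of all genes, with the group as the only term and Benjamini-Hochberg adjustment. The SE is the log2 fold change over the square root of F. DESeq2 1.42.0 and other filters, scalings and sample sets were alternatives. The test was checked on simulated data. GENCODE M21 (36308 of 38087 identifiers) gave coordinates and exon lengths. Libraries of a group differed by 8.86 to 76.6 chi-square per degree of freedom, so none was a duplicate. The labels number the samples without stating that each is another animal, so p-values reflect only how far these samples scatter, which may be technical.

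Reads from an overlapping gene on the other strand cannot be told apart if strand was not used. Exons of at least 50 bases were shared with a gene of the table on the other strand by 9 of the 34 genes (Ccna2, Ccnd1, Ccnd2, Ccnd3, Ccne2, Cdc20, Cdk4, Mcm7 and Rb1), and on the same strand by Foxm1, Mcm7 and Top2a. Of the further genes named, Alas2, Mpo, Plk3, Rbbp4 and Tk1 also shared such exons on the other strand.

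The 34 genes, the further lists and the alternatives were chosen with earlier results of these data known. Named genes were those past the threshold, the 3 largest changes and the 3 highest levels of each class, and of each further list the genes past the threshold or the 1 with the smallest p.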

Additional observations from a re-analysis of the deposited data

Results flagged for a closer look

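Among 80 groups of 6 libraries looked at (the 34 genes and the 6 further genes that passed, in each treatment), 4 held a library far from the other 5, and chance gives about 1 in 20, which is also 4. Cdk2 was low in PBS replicate 5, at 6.18 CPM beside 8.44 to 9.70 CPM in the other PBS libraries. Ccna2 was high in the same library, at 0.929 CPM beside 0.476 to 0.610 CPM, on 20 counts. Pold2 was low in GH replicate 6, at 3.96 CPM beside 6.33 to 7.14 CPM in the other GH libraries. Gadd45b was high in PBS replicate 2, at 4.18 CPM beside 0.552 to 1.62 CPM. PBS replicate 5 and GH replicate 6 are the libraries that an earlier account of these data names as standing apart, and values without both are given with the alternatives.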

How the results depend on the processing

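Of 467 log2 fold changes of the 26 genes over 18 alternative fits, 2 passed the threshold, both of Ccnd2, so the number of the 34 genes higher in GH was 1 when GH replicate 6 was left out, alone or together with PBS replicate 5, and 0 in the other fits. The number lower in GH was 0 in each fit. The sign turned at least once for 13 genes, each with a log2 fold change of 0.21 or less in size. Without both libraries the log2 fold change was 0.0081 for Cdk4, -0.0049 for Rb1, 0.017 for Tyms and -0.13 for Rrm2. With library totals in place of TMM it was -0.046 for Mcm2, -0.057 for Mcm3 and -0.035 for Rrm2. For Mcm3 it was -5.2e-05 with at least 1 count as the only filter and -0.00039 with the replicate block. As single libraries were left out, the log2 fold change ran from -0.33 to 0.035 for Ccnd1, -0.072 to 0.019 for Cdk4, -0.037 to 0.22 for Ccne2, -0.081 to 0.042 for Cdk2, -0.14 to 0.041 for Cdkn1b and -0.087 to 0.13 for Mcm2. It ran from -0.051 to 0.038 for Mcm3, -0.0056 to 0.24 for Mcm6, -0.016 to 0.11 for Rrm1, -0.16 to 0.18 for Rrm2 and -0.081 to 0.42 for Aurka.

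Of all genes, 323 were higher and 359 lower in GH. DESeq2 gave 504 and 566, the replicate block 180 and 211, and leaving out both libraries 518 higher and 504 lower. Single libraries left out gave 193 to 410 higher and 241 to 444 lower. Library totals gave 211 and 658, so the share of calls that were higher was 24.3% there and 47.4% with TMM, with the median of all genes at -0.06. The cause was not tested. Deviations of samples with the same number had correlations of -0.20 to 0.18, with 0 of 6 pairs best with its own number. These values show no pairing by number but cannot exclude one with a small effect, and the labels state none. The further lists gave 0 to 5 genes higher and 1 to 7 lower over the alternatives. With at least 1 count as the only filter the calls of Tk1, Cenpa and Mycn were lost (adjusted p-values of 0.128, 0.0528 and 0.134), with the replicate block those of Pold2, Cenpa, Gadd45b and Mycn (0.0581, 0.0782, 0.0544 and 0.118), and without both libraries that of Cenpa (0.0600), all by edgeR. The intervals of the 6 tested mitotic genes, on 2 to 69 counts per library, all reached past a 1.5-fold change.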

Other observations

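Mcm10, which helps to activate the replicative helicase, had a high count for a replication gene in these libraries and was picked out after its values were seen. It had 42.7, 56.4 and 82.0 CPM in PBS (lowest, median and highest) and 31.1, 54.0 and 60.2 CPM in GH, or 7.06 CPM per kilobase of exon. This level is near the 7.52 CPM per kilobase of Pcna and above the 2.95 of Mcm7. The groups overlapped (-0.23 ± 0.18, adjusted p = 0.551 by edgeR). Which part of the gene its reads come from was not analysed here, so the counts may not all be Mcm10 transcripts.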
